A study of Mus musculus with 6 samples.

Results

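The 9 genes described here, Trim30a, Trim30d, Trim34a, Trim12a, Trim21, Trim25, Trim14, Trim26 and Trim56, encode tripartite motif (TRIM) proteins with known roles in antiviral defence. They were taken by gene symbol from the annotation of the arrays, out of 18193 genes with a probe set of their own, and had been selected from the TRIM family with the Trex1 KO and Trex1 WT signals of these same arrays already known. The genotype differences below are therefore descriptions of these 9 genes, and their adjusted p-values say only where each stands in a fit over the whole table. The genes were read by 21 probe sets out of 45037 that were not controls. Of these, 18 were annotated to 1 of the 9 symbols alone, 1 to Trim30d and Trim30a together and 2 to Trim34b and Trim34a together.

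Total RNA came from the heart ventricles of 6 mice, each hybridised once to a 1-colour Affymetrix expression array. Trex1 KO mice lacked Trex1, a DNA exonuclease that degrades DNA in the cytosol, and Trex1 WT mice carried it, with 3 animals in each group. All 6, controls included, also lacked Rag2, which assembles antigen receptor genes, so that mature T and B cells and antibody do not form. Each Trex1 KO mouse had a Trex1 WT littermate, which gave the 3 pairs labelled A, B and C. The sources used here do not give the construction of the knockout alleles, nor the strain, age and sex of the animals.

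TRIM proteins carry a RING domain, 1 or 2 B-box domains and a coiled coil, often followed by a carboxy-terminal domain that picks the target. The RING domain transfers ubiquitin, and through it many TRIM proteins mark viral proteins for degradation or build ubiquitin chains on sensors and adaptors of the innate immune response. Trim14 lacks a RING domain and acts as an adaptor, so the name ubiquitin ligase does not cover it. Many TRIM genes respond to type I interferon, which acts through the transcription factor complex ISGF3 and its binding sequence, the interferon-stimulated response element. In mice the genes related to Trim5, Trim12, Trim34 and Trim30 have multiplied into a cluster of close copies on chromosome 7.

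The Trex1 transcript was low in the hearts labelled Trex1 KO. Its probe set, annotated to Atrip and Trex1 together, gave signals of 9.45, 20.6 and 34.2 in the 3 Trex1 KO hearts, against 714, 340.1 and 887 in the 3 Trex1 WT hearts (here and throughout in the order of litters A, B and C). No source used here says whether this probe set, or that of Rag2, reads sequence that the knockout removes. Rag2, deleted in both groups per the labels, had 91.3, 82.1 and 55.3 in the 3 Trex1 KO hearts and 62.3, 83.7 and 8.43 in the 3 Trex1 WT hearts, on 3 of the 6 arrays above the highest background signal given below. The 8 cardiomyocyte markers had a median difference of -0.01 on the log2 scale, with summed signals of 319047 to 352826 in Trex1 KO and 290587 to 370178 in Trex1 WT. As a measure of RNA integrity, the Actb 3' to 5' signal ratio was 1.66, 1.6 and 1.68 in the 3 Trex1 KO hearts, against 2.09, 2.29 and 1.8 in the 3 Trex1 WT hearts, without overlap (exact permutation test, two-sided, p = 0.1, the least that 3 against 3 arrays allow). The 18S ribosomal RNA signal was 2834, 1907 and 798 in the 3 Trex1 KO hearts, against 12811, 13708 and 924 in the 3 Trex1 WT hearts (exact permutation test, two-sided, p = 0.3), with Trex1 WT A and B far above the other arrays. The part of 18S RNA in the results was not tested. The part of RNA integrity in the results below was not tested beyond the fit with this ratio as a covariate. Probe sets for Bacillus subtilis genes, which have no counterpart in the tissue, reached a signal of 69.8 at most, and signals under that level are called near background here.

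Trim30d, Trim30a and Trim34a were higher in Trex1 KO hearts, and the other 6 genes did not pass the test. Each gene was represented by its brightest probe set, and differences are Trex1 KO minus Trex1 WT on the log2(signal + 16) scale, which understates the change of dim probe sets. In the fit over 27022 probe sets (limma, Benjamini-Hochberg adjusted p under 0.05), 3 of the 9 genes rose and 0 fell, where 0.312% of all tested genes rose and 0.039% fell. The median difference of the 9 was 0.65, against -0.02 over all 12811 tested genes, and 0.76, 0.51 and 0.60 in the 3 litters. All 9 differences lay above 0 and ran down to 0.05. In 7 of the 9 genes every Trex1 KO array lay above every Trex1 WT array, as in 5.03% of all tested genes, and Trim21 and Trim56 were the exceptions. By probe set, 19 of the 21 were bright enough to test and 7 of them rose and 0 fell, where 0.218% of all tested probe sets rose and 0.0259% fell. The groups did not overlap in 15 of the 19, all higher in Trex1 KO, as in 5.57% of all tested probe sets. In the fit with the litter as a block, 4 genes rose, Trim25 being added, where 0.531% of all tested genes rose, and 9 probe sets rose, where 0.389% of all did. With the Actb ratio as a covariate, 0 of the 9 passed in limma, 6 were higher at an unadjusted p under 0.05, and their median difference was 0.92. That fit called 8 probe sets higher and 1 lower of all 27022. At an unadjusted p under 0.05 it had 953 of the 27022 higher and 652 lower, and 10 and 0 of the 19. Without both animals of pair A, without both of pair C, without Trex1 WT A, or without an intensity trend, 1 gene passed, which was Trim30d.

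**Figure D1:**
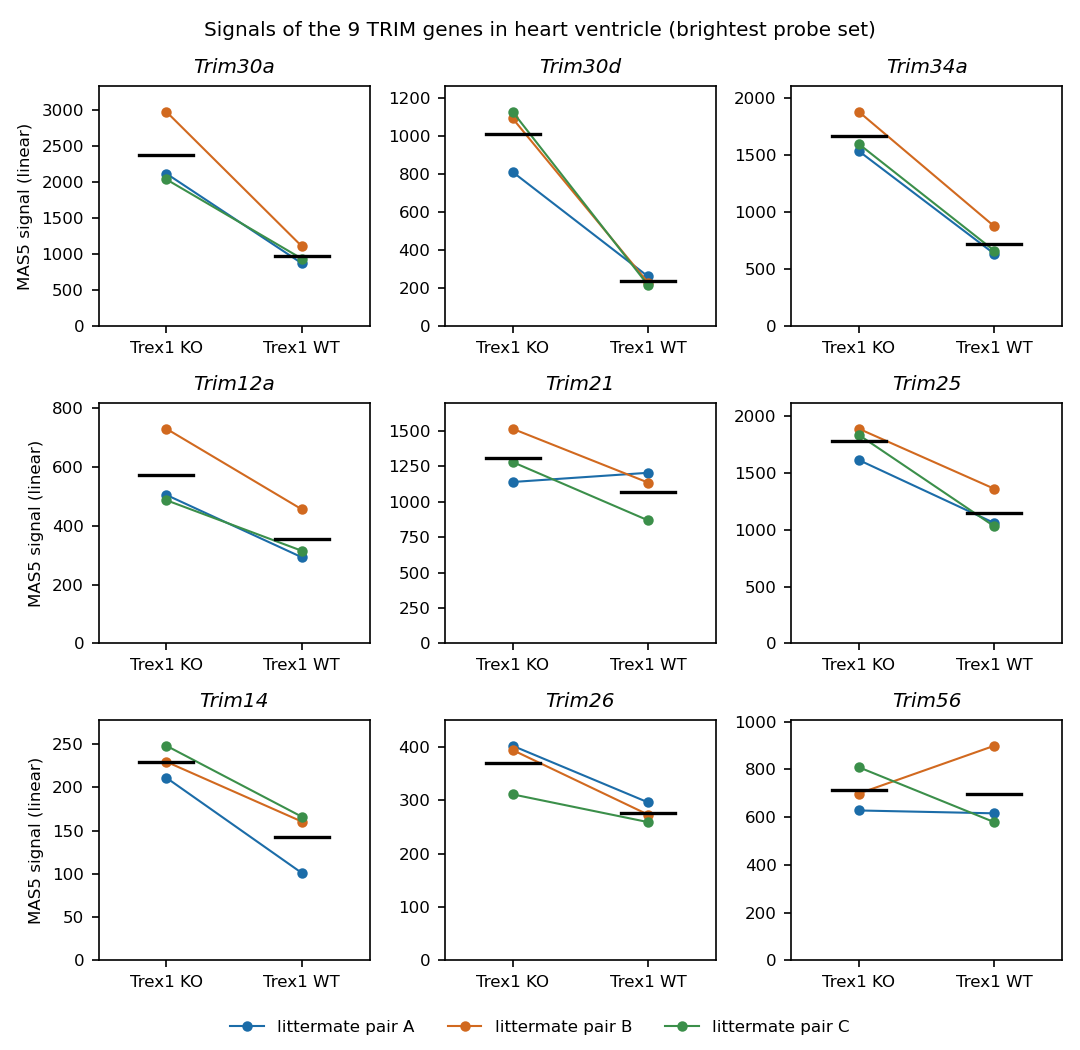
Signal of the brightest probe set of each of the 9 genes (MAS5 signal, linear axis from 0) in Trex1 KO and Trex1 WT hearts, with littermates joined by a line and group means as black bars (n = 3 each). All 3 Trex1 KO points lie above all 3 Trex1 WT points in 7 panels, and the groups overlap in the panels of Trim21 and Trim56.

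The Trim30 genes showed the largest differences of the 9. Trim30a limits inflammatory signalling by driving the degradation of Tab2 and Tab3, adaptors of the kinase Map3k7, and has been reported to restrain the DNA-sensing adaptor Sting1 as well. Trim30d, also known as Trim79, encodes a protein that restricts tick-borne flaviviruses through their polymerase.

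Trim30d had signals of 813, 1095 and 1130 in the 3 Trex1 KO hearts, against 263, 230.4 and 217 in the 3 Trex1 WT hearts. The lowest Trex1 KO array was far above the highest Trex1 WT array, and the Trex1 WT arrays lay close together. Trim30d rose 4.04-fold, to 1012 ± 174 in Trex1 KO against 237 ± 23.4 in Trex1 WT (SD, n = 3 each), a log2 difference of 2.01 (SE 0.17, limma adjusted p = 0.000574). Its second probe set gave 205, 294 and 281 in the 3 Trex1 KO hearts, against 47.7, 47.9 and 103 in the 3 Trex1 WT hearts. There the groups did not overlap either, but 2 of the Trex1 WT signals were near background, and the difference of 1.80 (SE 0.30) missed the threshold (limma adjusted p = 0.0515, and 0.0271 blocked by litter).

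Trim30a had signals of 2115, 2971 and 2035 in the 3 Trex1 KO hearts, against 873, 1109 and 937 in the 3 Trex1 WT hearts. Pair B was the highest in both groups. Trim30a rose 2.39-fold, with means of 2373 ± 519 in Trex1 KO and 973 ± 122 in Trex1 WT (SD, n = 3 each, log2 difference 1.26, SE 0.16, limma adjusted p = 0.00925). The second Trim30a probe set gave almost the same difference, 1.24 (SE 0.16), with 1.25, 1.28 and 1.20 in the 3 litters (limma adjusted p = 0.00925).

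The probe set annotated to Trim30d and Trim30a together lay between the separate ones. Its signals were 833, 1139 and 784 in the 3 Trex1 KO hearts, against 349, 268 and 282 in the 3 Trex1 WT hearts (log2 difference 1.55, SE 0.18, limma adjusted p = 0.00458). Because the Trim30 genes are close copies, a probe set annotated to one may also bind transcripts of another, and the share of each in these signals is uncertain. The difference of Trim30d exceeded that of Trim30a by 0.31, 0.76 and 1.19 on the log2 scale in the 3 litters, 0.75 on average. Both genes were chosen with these values known, so this gap is a description only.

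The promoters of the Trim30 genes are shown because both genes rose together. The windows come from RefSeq on GRCm38.p6 and run from 250 bases before to 50 bases after the start of the gene, written 5′ to 3′ along the gene. Capitals mark matches to the core of the interferon-stimulated response element, taken as GAAA, any 2 bases and GAAA again, or on the reverse strand as TTTC, any 2 bases and TTTC. The Trim30d window is chr7:104507800-104508099 and the Trim30a window chr7:104465144-104465443, both on the minus strand.
Trim30d: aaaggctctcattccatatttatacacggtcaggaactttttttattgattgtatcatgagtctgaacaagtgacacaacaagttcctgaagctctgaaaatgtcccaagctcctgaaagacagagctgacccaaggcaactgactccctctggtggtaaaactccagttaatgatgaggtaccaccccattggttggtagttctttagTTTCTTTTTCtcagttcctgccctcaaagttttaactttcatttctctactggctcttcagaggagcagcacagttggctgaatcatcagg
Trim30a: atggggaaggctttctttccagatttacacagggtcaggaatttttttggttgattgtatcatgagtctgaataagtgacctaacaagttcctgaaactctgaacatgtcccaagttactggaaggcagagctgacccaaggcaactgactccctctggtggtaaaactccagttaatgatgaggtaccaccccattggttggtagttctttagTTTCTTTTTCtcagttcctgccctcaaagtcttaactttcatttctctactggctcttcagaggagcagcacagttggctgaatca
The 2 windows share an unbroken run of 118 bases, and this run holds the match in both. The match lies at -41 to -32 from the start of Trim30d and at -36 to -27 from the start of Trim30a. A second annotated start of Trim30a has a match at 3 to 12.

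Trim34a and Trim12a lie in the same cluster as the Trim30 genes. Trim34a is the mouse relative of human TRIM34, an interferon-responsive gene whose protein works with human TRIM5 against retroviral capsids. Trim12a is one of the mouse genes related to human TRIM5, the retroviral restriction factor.

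Trim34a had signals of 1538, 1883 and 1600 in the 3 Trex1 KO hearts, against 637, 878 and 664 in the 3 Trex1 WT hearts. Every Trex1 KO array was far above every Trex1 WT array, and pair B was again the highest in both groups. Trim34a rose 2.29-fold, with means of 1674 ± 184 in Trex1 KO and 726 ± 132 in Trex1 WT (SD, n = 3 each, log2 difference 1.20, SE 0.15, limma adjusted p = 0.00837), and with 1.25, 1.09 and 1.25 in the 3 litters. A probe set shared with Trim34b gave 505, 624 and 505 in the 3 Trex1 KO hearts, against 250.3, 252 and 299 in the 3 Trex1 WT hearts (log2 difference 0.98, SE 0.16, limma adjusted p = 0.0474). A dimmer shared probe set gave 0.77 and did not pass (SE 0.32, limma adjusted p = 0.89). The last probe set of Trim34a stayed near background, with 39.6, 47 and 26 in the 3 Trex1 KO hearts and 29.1, 66.7 and 26.6 in the 3 Trex1 WT hearts, and was too dim to test. When the probe sets of Trim34a were averaged, this dim one included, its difference was 0.58, short of the threshold (limma adjusted p = 0.743). Without Trex1 KO B the adjusted p of Trim34a was 0.0601, and without Trex1 WT A it was 0.052 for Trim34a and 0.0584 for Trim30a (limma).

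Trim12a had signals of 505, 730.1 and 487 in the 3 Trex1 KO hearts, against 293, 456 and 315 in the 3 Trex1 WT hearts. The groups did not overlap, but the highest Trex1 WT array, B, came close to the lowest Trex1 KO array, C. Within litters the difference was more even, at 0.76, 0.66 and 0.60. Trim12a did not pass, with a log2 difference of 0.67 (SE 0.21, limma adjusted p = 0.687, and SE 0.13 and adjusted p = 0.0988 blocked by litter). Its second probe set, at 78, 69.3 and 88.3 in the 3 Trex1 KO hearts against 67.2, 43.4 and 67.7 in the 3 Trex1 WT hearts, gave 0.34 (SE 0.31, limma adjusted p = 0.956).

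The match in the Trim34a promoter lies just inside the gene. The window is chr7:104244207-104244506 on the plus strand of GRCm38.p6, with capitals as above.
Trim34a: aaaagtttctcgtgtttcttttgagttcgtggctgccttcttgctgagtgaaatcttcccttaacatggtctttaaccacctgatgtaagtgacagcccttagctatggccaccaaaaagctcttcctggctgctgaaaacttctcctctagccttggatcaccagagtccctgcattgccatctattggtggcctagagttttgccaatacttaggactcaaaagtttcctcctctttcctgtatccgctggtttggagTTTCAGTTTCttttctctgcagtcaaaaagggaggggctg
The capitals stand at 11 to 20 from the start. The Trim12a window also holds 1 match, at 11 to 20. It shares a run of 241 bases, match included, with the window of its neighbour Trim5. The Trim12c window holds a match as well.

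Along chromosome 7 the cluster runs from Trim6 to Trim30e-ps1 and lists 21 genes in the GRCm38.p6 table, of which 11 are TRIM genes. Of the 11, 7 had a probe set of their own, and the other 10 genes of the stretch had none. The 4 of the 9 genes that lie here had differences from 0.67 to 2.01 (median 1.23). The other 3 TRIM genes of the cluster with a probe set did not pass. Trim12c had signals of 788, 1102 and 1115 in the 3 Trex1 KO hearts, against 857, 599.7 and 620.0 in the 3 Trex1 WT hearts (log2 difference 0.52, SE 0.18, limma adjusted p = 0.777). The groups overlapped through pair A, where the difference was -0.12. The second Trim12c probe set did not overlap, with 172, 225 and 257 in the 3 Trex1 KO hearts, against 144, 126 and 143 in the 3 Trex1 WT hearts, and gave 0.59 without passing (SE 0.21, limma adjusted p = 0.803). Trim6 had a difference of 0.58 without overlap (SE 0.33, limma adjusted p = 0.955), with Trex1 WT signals of 36.9 to 46.4, near background. The second Trim6 probe set did not overlap either and gave 0.94, but every signal was near background and it was not tested. Trim5 had a difference of 0.14 with overlapping groups (SE 0.29, limma adjusted p = 0.979). Trim5, Trim12a and Trim12c, which did not pass, stand between Trim34a and the Trim30 genes. As close copies stand side by side here, binding of one gene's probes by a neighbour's transcripts was not tested.

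**Figure D2:**
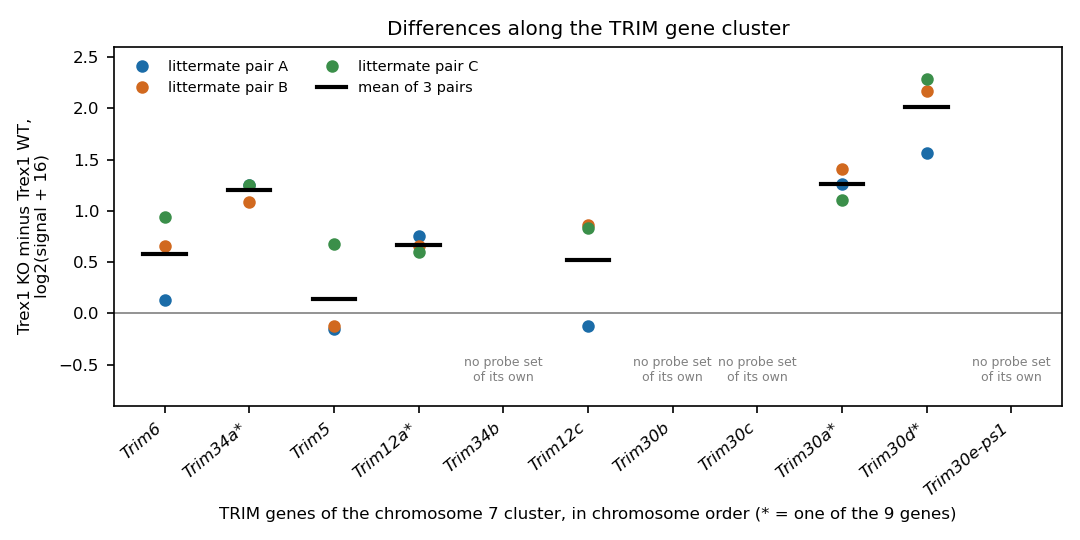
Trex1 KO minus Trex1 WT difference on the log2(signal + 16) scale for the 11 TRIM genes of the chromosome 7 cluster, in chromosome order, with 1 point per littermate pair and the mean as a black bar (brightest probe set, asterisks marking the 9 genes). Trim34a, Trim30a and Trim30d lie at 1.09 or above in every pair, whereas Trim5 and Trim12c have points below 0, and 4 genes had no probe set of their own.

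Trim25 and Trim14 act on the sensors of cytosolic nucleic acid. Trim25 builds ubiquitin chains that activate the RNA sensor RIG-I (Ddx58), can attach ISG15 to proteins, and is a cofactor of the RNA-binding antiviral protein ZAP (Zc3hav1). Trim14 sits at mitochondria with the adaptor Mavs and stabilises the DNA sensor Cgas by recruiting the deubiquitinase Usp14.

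Trim25 had signals of 1613, 1888 and 1834 in the 3 Trex1 KO hearts, against 1059, 1360 and 1030 in the 3 Trex1 WT hearts on its brightest probe set. The groups did not overlap, and the log2 difference of 0.63 (SE 0.13) missed the threshold (limma adjusted p = 0.2, and 0.0489 blocked by litter). Leaving out Trex1 WT B, its highest Trex1 WT array, gave 0.76 with a limma adjusted p of 0.0316. The second probe set of Trim25 had 1386, 1788 and 1521 in the 3 Trex1 KO hearts, against 898, 962 and 865 in the 3 Trex1 WT hearts. On this probe set Trim25 rose 1.70-fold (log2 difference 0.77, SE 0.13, limma adjusted p = 0.0483). The third and dimmest gave 1.04 without passing (SE 0.28, limma adjusted p = 0.468). Averaged over its probe sets, Trim25 had a difference of 0.81 and passed (limma adjusted p = 0.0272). All 3 probe sets were thus separated between the groups and higher in every litter, and they differed in whether they passed.

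Trim14 had signals of 211, 229.5 and 248 in the 3 Trex1 KO hearts, against 101, 160.4 and 166 in the 3 Trex1 WT hearts. The groups did not overlap, and the litters differed, with 0.95 in pair A against 0.48 and 0.53 in pairs B and C. The mean difference of 0.65 did not pass (SE 0.23, limma adjusted p = 0.777). Its other probe set was near background on all 6 arrays, at most 45.9, and was not tested.

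Trim21, Trim26 and Trim56 differed least. Trim21 is a cytosolic receptor for antibody, which marks antibody-coated virus particles for the proteasome with the help of the unfolding enzyme Vcp. Trim26 has been reported to act on Irf3 and on Tbk1 signalling, and Trim56 on Sting1 and Cgas.

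Trim21 had signals of 1140, 1516 and 1281 in the 3 Trex1 KO hearts, against 1205, 1136 and 869 in the 3 Trex1 WT hearts. The groups overlapped, because in pair A the Trex1 KO heart was slightly the lower one. The litter differences were -0.08, 0.41 and 0.55, and the mean of 0.29 missed the threshold (SE 0.16, limma adjusted p = 0.955). The second probe set of Trim21 repeated the order of pair A, with -0.06, 0.85 and 0.28 (mean 0.36, SE 0.18, limma adjusted p = 0.951).

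Trim26 had signals of 402, 394 and 311 in the 3 Trex1 KO hearts, against 296, 273 and 259 in the 3 Trex1 WT hearts. The groups did not overlap by a small margin, and the difference of 0.39 did not pass (SE 0.17, limma adjusted p = 0.891). Its second probe set overlapped between the groups, with -0.42, 0.49 and -0.11 in the 3 litters and a mean of -0.02 (SE 0.25, limma adjusted p = 0.998).

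Trim56 had signals of 628, 699 and 809 in the 3 Trex1 KO hearts, against 616, 899 and 579 in the 3 Trex1 WT hearts. The highest array of all 6 was a Trex1 WT one, B, and the litters pointed in different directions, with 0.03, -0.36 and 0.47. The mean difference was 0.05 (SE 0.18, limma adjusted p = 0.99).

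**Figure D3:**
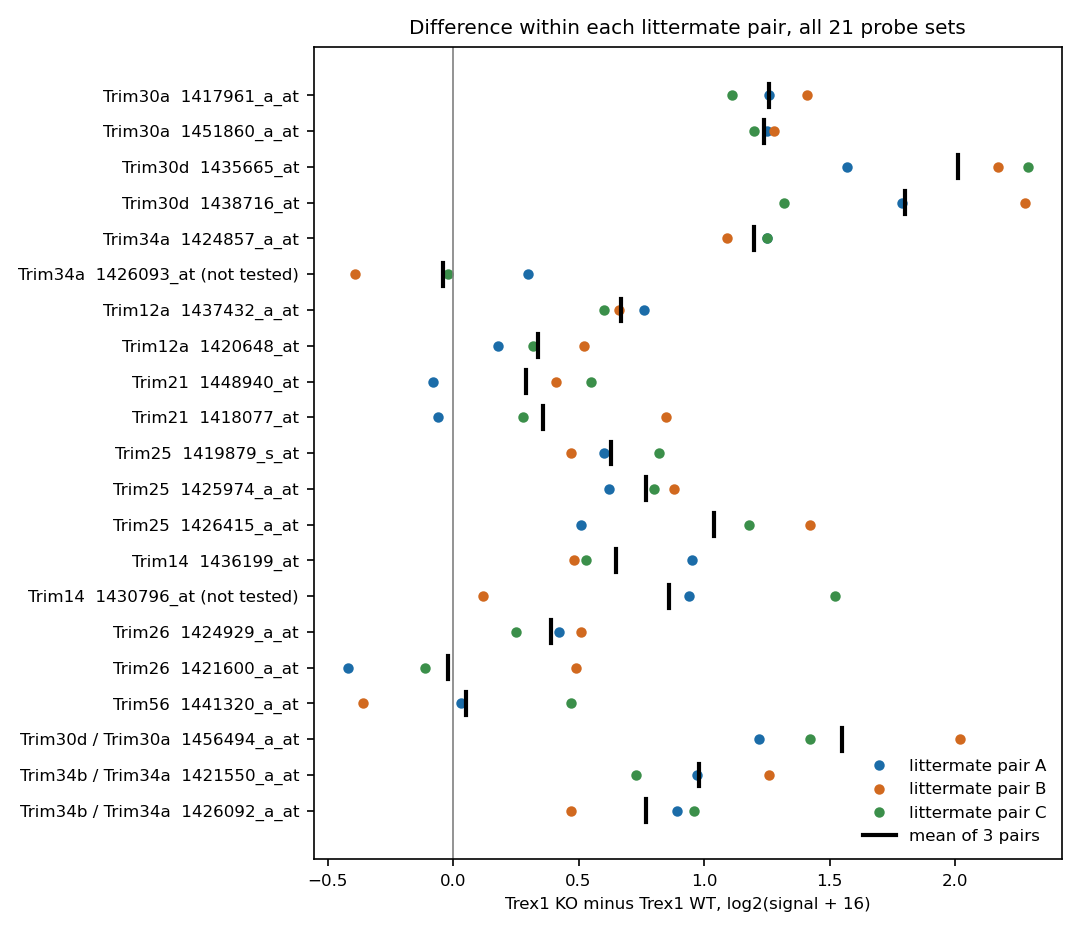
Trex1 KO minus Trex1 WT difference on the log2(signal + 16) scale for all 21 probe sets, named by gene and probe set, with 1 point per littermate pair and the mean as a black bar. The Trim30a and Trim30d probe sets lie between 1.11 and 2.29 in every pair, and those of Trim21, Trim26 and Trim56 have points on or across 0 except the brightest of Trim26.

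The promoters of Trim21, Trim25 and Trim56 are shown because their windows differ in the response element. None of these genes passed on its brightest probe set in the main fit. Trim25 did pass on its second probe set (limma adjusted p = 0.0483) and blocked by litter (0.0489). The windows are chr7:102565433-102565732 on the minus strand for Trim21, chr11:88999153-88999452 on the plus strand for Trim25 and chr5:137116158-137116457 on the minus strand for Trim56 (RefSeq, GRCm38.p6, capitals as above).
Trim21: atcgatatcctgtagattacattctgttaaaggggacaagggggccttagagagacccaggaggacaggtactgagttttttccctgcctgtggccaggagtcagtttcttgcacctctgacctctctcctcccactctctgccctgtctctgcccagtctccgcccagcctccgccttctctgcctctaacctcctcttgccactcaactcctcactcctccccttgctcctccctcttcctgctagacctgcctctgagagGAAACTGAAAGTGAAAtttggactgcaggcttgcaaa
Trim25: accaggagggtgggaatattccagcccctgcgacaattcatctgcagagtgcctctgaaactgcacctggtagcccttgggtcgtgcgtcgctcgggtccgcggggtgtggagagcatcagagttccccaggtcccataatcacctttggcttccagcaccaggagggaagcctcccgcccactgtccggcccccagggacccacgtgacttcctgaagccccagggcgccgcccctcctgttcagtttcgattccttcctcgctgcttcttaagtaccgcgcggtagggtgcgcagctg
Trim56: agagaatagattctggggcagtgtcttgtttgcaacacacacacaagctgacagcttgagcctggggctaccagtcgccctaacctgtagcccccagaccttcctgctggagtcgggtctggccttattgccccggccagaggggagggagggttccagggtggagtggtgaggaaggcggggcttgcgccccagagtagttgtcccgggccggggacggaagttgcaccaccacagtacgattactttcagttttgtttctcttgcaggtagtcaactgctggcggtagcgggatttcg
The Trim21 window has 2 overlapping matches in the sense orientation, at 14 to 23 and at 20 to 29 from the start. The windows of Trim25 and Trim56 hold no such match on either strand. The window of Trim26 holds 2 overlapping matches at -160 to -151 and -154 to -145. Of the 9 genes, 8 had a window in the table, and 6 of the 8 held a match, whereas 3.99% of 27025 genes with a window did. Those 6 were the 3 genes that rose and Trim12a, Trim21 and Trim26, which did not pass. Among 42 other TRIM genes with a window 3 held a match, namely Trim12c, Trim5 and Trim2, and their differences of 0.52, 0.14 and -0.17 missed the threshold (limma adjusted p = 0.777, 0.979 and 0.965). The core of the gamma-activated site, TTCNNNGAA (its own reverse complement), was in the windows of 0 of the 8 genes and of 9.55% of all genes. These matches describe letters in a window and show no binding.

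The rest of the TRIM family gave no gene past the threshold. Of 52 other TRIM genes with a probe set of their own (Pml, Mid1 and Mid2 counted in), 36 were tested. In limma 0 rose and 0 fell, also without an intensity trend and blocked by litter. At an unadjusted p under 0.05, 2 of the 36 were higher and 1 lower, where 388 of all 12811 tested genes were higher and 290 lower. The differences of the 36 ran from -0.33 to 0.58 with a median of -0.06. The smallest p belonged to Pml, the organiser of nuclear bodies, with 256, 227 and 239 in the 3 Trex1 KO hearts, against 149, 185 and 144 in the 3 Trex1 WT hearts (log2 difference 0.56, SE 0.19, limma adjusted p = 0.776). Pml was separated between the groups without passing. Its other probe sets gave 0.68 without overlap and 0.45 with overlap, neither passing (SE 0.22 and 0.39, limma adjusted p = 0.722 and 0.956). Trim12c came next and then Trim27, which had a difference of -0.33 (SE 0.12, limma adjusted p = 0.785) on its brightest probe set and mixed signs on its others.

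**Figure D4:**
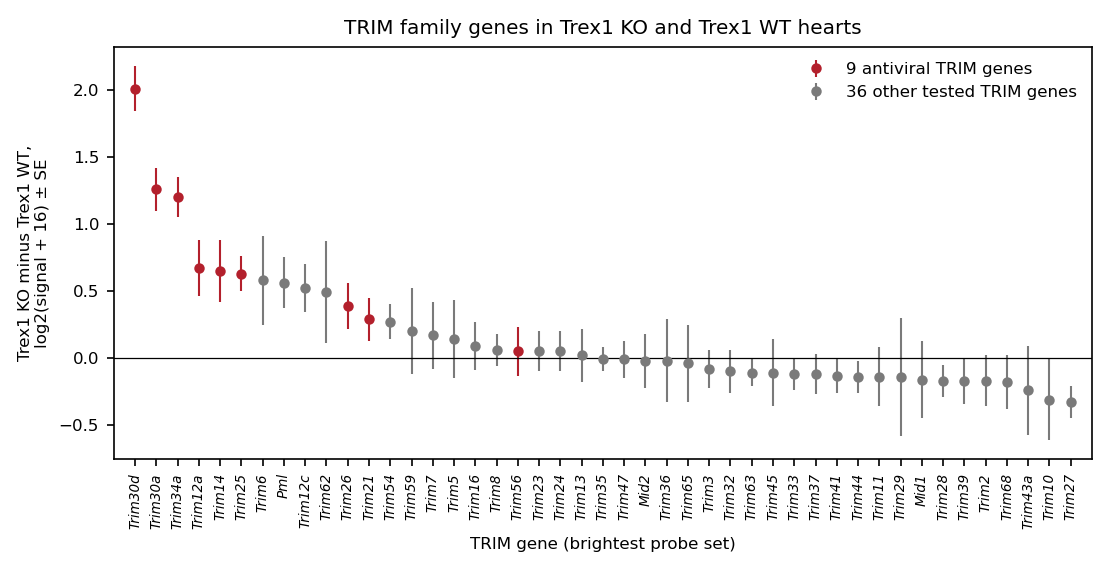
Trex1 KO minus Trex1 WT difference on the log2(signal + 16) scale with its standard error for the 9 genes (red) and 36 other tested TRIM genes (grey), each by its brightest probe set and ordered by difference. Trim30d, Trim30a and Trim34a stand at 1.20 or above, and every other TRIM gene is at 0.67 or below.

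Among genes that work with these proteins, the RNA sensors and Irf7 rose and the ubiquitin enzymes did not pass. The list held 36 sensors, adaptors, kinases, ubiquitin enzymes and deubiquitinases, of which 33 had a probe set of their own and 32 were tested. Of the 32, 4 rose and 0 fell, with a median difference of 0.07, where 0.312% of all tested genes rose. Ddx58, the target of Trim25, had signals of 1307, 1621 and 1313 in the 3 Trex1 KO hearts, against 605, 617 and 662 in the 3 Trex1 WT hearts (log2 difference 1.14, SE 0.13, limma adjusted p = 0.00392). Ifih1, the second RNA sensor of the family, rose by 1.53 (SE 0.14, limma adjusted p = 0.000955) and the transcription factor Irf7 by 2.57 (SE 0.22, limma adjusted p = 0.000728). Dhx58, a regulator of both sensors, passed narrowly (log2 difference 2.25, SE 0.37, limma adjusted p = 0.0474). Its Trex1 WT signals of 10.9 to 40.5 were near background, so the size is uncertain, with 2.91 for a pseudocount of 1 and 1.40 for 64, and it lost its call in 13 of 16 alternative fits (adjusted p from 0.0168 to 0.503).

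Apart from Ddx58, none of the tested partners named above with the 9 proteins passed, and Isg15, which had no probe set annotated to it alone, was not analysed here. Zc3hav1, which needs Trim25, had 955, 1236 and 1135 in the 3 Trex1 KO hearts, against 688, 854 and 715 in the 3 Trex1 WT hearts, a separation that did not pass (log2 difference 0.55, SE 0.14, limma adjusted p = 0.418). Uba7 and Sting1 had differences of 0.63 and 0.73 without passing (SE 0.18 and 0.23, limma adjusted p = 0.57 and 0.69). Differences were -0.14 and -0.07 for Tab2 and Tab3, targets of Trim30a, and -0.29, -0.18 and 0.05 for Mavs, Cgas and Usp14, partners of Trim14. Vcp, which serves Trim21, had a difference of 0.12 (SE 0.12). The limma adjusted p was 0.955 or above for each of these 6 genes.

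The genes nearest to the 3 that rose were found by their litter differences. Likeness was the Euclidean distance between the 3 litter differences of a gene and those of the TRIM gene, over all tested genes that are not among the 9. Nearest to Trim30a were Phf11d, Ifi209 and Ifi27l2a, at distances of 0.12, 0.21 and 0.22, of which Ifi209 did not pass itself (limma adjusted p = 0.462). Nearest to Trim30d were Ifit2, Gm4951 and Lgals3bp, at 0.26, 0.31 and 0.32. Nearest to Trim34a were Ms4a6b, Eif2ak2 and Rtp4, at 0.04, 0.24 and 0.26, of which Ms4a6b did not pass itself (limma adjusted p = 0.21). A small distance need not mean the same order over litters, since Trim34a was lowest in pair B and Eif2ak2 highest there. Some gene is always nearest, so such distances over 3 litters are a description only.

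In bulk tissue, more RNA per cell and more cells of a type that expresses a gene cannot be told apart, so markers of other cells were set beside the TRIM genes. Of 14 monocyte and macrophage markers, 0 rose and 0 fell in limma (1 higher and 1 lower at an unadjusted p under 0.05). At that unadjusted level, 388 of all 12811 tested genes were higher and 290 lower. The higher marker was Fcgr1, with a difference of 0.73 and groups that did not overlap (SE 0.23, limma adjusted p = 0.684). The lower one, Cd163, had a difference of -1.38 and fell in the fit blocked by litter (limma adjusted p = 0.00855, and 0.0504 without the block). Of the 14, 9 lay above 0, the median difference was 0.19, and their summed signals were 17915 to 25052 in Trex1 KO and 15143 to 26008 in Trex1 WT, which overlapped. Of 6 tested natural killer markers, 0 passed in limma (1 higher at an unadjusted p under 0.05) and 5 lay above 0. Their median was 0.65, with summed signals of 852 to 2428 in Trex1 KO and 689 to 939 in Trex1 WT. Prf1 did not overlap between the groups (difference 0.55, SE 0.26, limma adjusted p = 0.927). Gzma, Gzmb, Nkg7, Klrd1 and Ncr1 overlapped, with differences of 0.96, 0.81, 0.76, 0.24 and -0.08. Of 5 neutrophil markers on the array 3 were tested and 0 passed in limma (0 at an unadjusted p under 0.05), with a median of 0.79 and summed signals of 483 to 1597 in Trex1 KO and 502 to 681 in Trex1 WT. The neutrophil markers S100a8, S100a9 and Ngp, which were tested, had differences of 0.79, 0.89 and -0.59 with overlapping groups. Camp and Mpo were too dim to test. Camp overlapped between the groups (difference 0.21), and Mpo did not, with 82.7, 44 and 70.2 in the 3 Trex1 KO hearts, against 21.5, 12.2 and 12.6 in the 3 Trex1 WT hearts, the Trex1 WT signals all being near background. Of 6 T and B lymphocyte markers on the array, 1, Cd8a, was bright enough to test, with means of 99.9 in Trex1 KO and 116 in Trex1 WT and overlapping groups (difference -0.29, SE 0.50, limma adjusted p = 0.974). The B cell marker Ms4a1 had 82, 49.9 and 22.9 in the 3 Trex1 KO hearts, against 22.1, 19.4 and 19.4 in the 3 Trex1 WT hearts, without overlap. Ms4a1 was too dim to test, and every signal but that of Trex1 KO A was near background. Cd3d, Cd3e, Cd4 and Cd79a were near background on all 6 arrays. Of 4 endothelial, 4 fibroblast, 2 dendritic and 2 atrial markers tested, 0 passed in limma. Their medians were -0.16, 0.09, -0.10 and 0.26. The endothelial marker Kdr was lower in Trex1 KO without overlap (difference -0.27, SE 0.13, limma adjusted p = 0.934). The part of all these cells in the TRIM differences was not tested.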

How the data were processed

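Labelled total RNA of 6 heart ventricle samples was hybridised to 1 array per animal. The deposited values are the authors' linear probe set intensities, and the submitters' processing notes name MAS5. The sources used here give neither its version nor its settings. The mean signal after trimming 2% at each end, averaged over the 6 arrays, was 500.0, and no further scaling was applied. Groups came from the sample titles, pairs from the series' design text.

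Signals were transformed to log2(signal + 16). Probe sets whose mean reached the 40th percentile (6.13 on the log2 scale, a signal of 53.8) were tested, 27022 of 45037. Trex1 KO was compared with Trex1 WT with limma 3.58.1 in R 4.3.3 (lmFit, eBayes with an intensity trend, 4 residual degrees of freedom) with Benjamini-Hochberg adjustment over all of them at 0.05, two-sided. The procedure was tested on simulated data drawn independently for each array, without any likeness between littermates. The design text names the litters, and littermates' deviations from their group means had correlations of 0.151, 0.192 and 0.147, other pairings 0.0101 or below, so the pair was a block in an alternative fit (2 residual degrees of freedom). Other alternatives were pseudocounts of 1 and 64, no filter and a filter at the 60th percentile, quantile normalisation, no intensity trend, the Actb ratio as a covariate, probe sets averaged per gene, and leaving out arrays or litters.

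Symbols came from the platform annotation, checked through Entrez identifiers against RefSeq genes of GRCm38.p6 (34741 of 34945 matched). The files name no genome build, so this table gave only names and gene order, and promoter coordinates are those of RefSeq. The text names all 9 genes, the nearest 3 genes to each that passed, and from each of the 2 other lists every gene that passed or, where none did, the 3 with the smallest p. Zc3hav1, Uba7, Sting1, Tab2, Tab3, Mavs, Cgas, Usp14, Vcp, the marker genes and the TRIM genes of the cluster were added after their values were seen. The genes, lists and tests were chosen with earlier results of these data known. The p-values measure the spread between 6 animals, and the number of arrays limits the precision.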

Additional observations from a re-analysis of the deposited data

How the results depend on the processing

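The count of 3 higher genes among the 9 was 3 or 4 under both other pseudocounts, both other filters, quantile normalisation, averaging of probe sets and the littermate pair as a replicate block (4). With probe sets averaged, over 8 genes, the 3 were not the same: Trim34a lost its call and Trim25 gained one. The count was 1 when eBayes used no intensity trend and 0 in the fit with the Actb ratio, and ranged from 1 to 4 when single arrays or litters were left out. The 7 higher probe sets became 1 without an intensity trend, 0 with the Actb ratio and 1 to 7 with arrays or litters left out (3 without Trex1 KO B, 2 without Trex1 WT A, 1 without pair A or pair C). They were 9 with the replicate block, 5 with a pseudocount of 1 and 8 with one of 64. Without a filter they were 5, with the filter at the 60th percentile 7, and with quantile normalisation 6. The 4 higher partner genes became 2 without an intensity trend, 0 with the Actb ratio and 2 to 4 with arrays or litters left out. They were 3 with a pseudocount of 1, either other filter, quantile normalisation or averaged probe sets. With a pseudocount of 64 or the replicate block they stayed at 4. The median difference of the 9 genes was 0.92 with the Actb ratio and between 0.55 and 0.76 in the other fits to brightest probe sets. It was 0.54 over 8 genes, Trim14 having no value, when probe sets were averaged. Without an intensity trend only the spread is estimated anew, and for the Actb ratio, which separated the groups, the cause was not tested. Trim30d passed in 17 of 18 alternatives (limma adjusted p from 0.00048 to 0.0739), Trim30a in 13 (0.000756 to 0.349) and Trim34a in 11 (0.0011 to 0.743). The difference of Trim56 turned to -0.05 without Trex1 KO C, -0.03 without Trex1 WT A, -0.07 without Trex1 WT C and -0.16 without pair C, never passing. Its highest value with arrays or litters left out was 0.25 without pair B, and it was 0.56 with the Actb ratio. The block added the call of Trim25 and changed no other call among the 9 genes by their brightest probe sets.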
